A study of Mus musculus with 6 samples.

Results

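The levels of 31 marker genes of blood vessels were compared between embryonic mouse lenses with a conditional knockout of β1-integrin and wild-type lenses, 23 of them markers of endothelial cells and 8 of them markers of pericytes. The genes were taken by symbol, and all 31 were found among the 41128 features listed for each library. All 31 were also among the 11941 genes tested, which had at least 1 CPM (reads per 1000000 counted reads) in at least 3 libraries.

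The conditional knockout (cKO) lenses came from embryos with both copies of the β1-integrin gene, Itgb1, floxed and with the MLR10 Cre transgene, on a strain background labelled "mix", and each of the 3 biological replicates pooled 30 lenses. The wild-type lenses came from C57Bl/6 embryos, for which no floxed allele or Cre is named, with 75 lenses in each of 3 pools, and their records repeat samples of an earlier series. All embryos were at E15.5, and poly(A) RNA of the whole lens was sequenced with a kit that does not mark strand. MLR10 Cre is driven by a modified αA-crystallin promoter and acts in lens epithelial and fibre cells. In which cells Itgb1 was deleted was not tested here. Genotype, Cre, strain background, number of lenses per pool and origin of the libraries all differed in the same way, and their effects cannot be told apart.

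The lens itself has no blood vessels. In the mouse embryo it is wrapped by a temporary network, the hyaloid vessels and their tunica vasculosa lentis, which lies against the lens capsule and regresses after birth. Its capillaries are tubes of endothelial cells, which read VEGF and angiopoietins through receptor tyrosine kinases and hold together by adherens and tight junctions, with pericytes laid on the outside and recruited by PDGF-B. Every one of the 31 genes had reads in every library, with 8 to 1174 reads per library for the endothelial genes and 12 to 2626 for the pericyte genes. In bulk samples more cells of a type and more RNA per cell cannot be told apart.

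The cKO libraries held 20036554 to 28095318 counted reads and the wild-type libraries 10023049 to 11531139, so that 1 read was worth 0.0356 to 0.0998 CPM. Itgb1 fell, with 236, 275 and 262 CPM in cKO lenses against 402, 424 and 448 CPM in wild-type lenses (log2 fold change -0.72, SE 0.08, limma adjusted p = 1.63e-05). Reads from outside the deleted stretch are part of these values, and which exons are floxed is not stated in the labels. Lens markers dominated both groups: Cryaa, an α-crystallin, had 126624 to 136863 CPM in cKO lenses and 133463 to 143823 CPM in wild-type lenses. Pigment cell genes stood apart in wild-type replicate 2: the summed level of Dct, Tyr, Tyrp1 and Pmel was 3.14, 1.68 and 1.53 CPM in cKO replicates 1, 2 and 3, against 1.47, 8.59 and 1.896 CPM in wild-type replicates 1, 2 and 3.

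Endothelial markers were higher in cKO lenses as a group. Of the 23 endothelial genes, 16 rose, 0 fell and 7 did not pass the test, which was limma on log2(CPM + 1) with Benjamini-Hochberg adjustment over all 11941 genes and a threshold of 0.05. By the same rule 20.9% of all tested genes were higher and 15.9% were lower. All 23 had positive log2 fold changes, so none was lower at an unadjusted p either, and edgeR on recovered reads also called 16 higher and 0 lower, while calling 20.0% of all tested genes higher and 20.0% lower. The median log2 fold change of the 23 genes was 0.59, with a range of 0.04 to 1.13, against a median of 0.03 over all genes tested. Summed over the 23 genes, the level was 359, 432 and 384 CPM in cKO replicates 1, 2 and 3, against 229, 247 and 278 CPM in wild-type replicates 1, 2 and 3. The sums of the 2 groups did not overlap, and the cKO mean was 1.56 times the wild-type mean. Gene by gene, all cKO libraries lay above all wild-type libraries in 20 of the 23, against 26.9% of all tested genes. Sox17 is among the 20, but it passed the filter on low values only through its cKO libraries, so its separation was fixed by the filter.

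**Figure D1:**
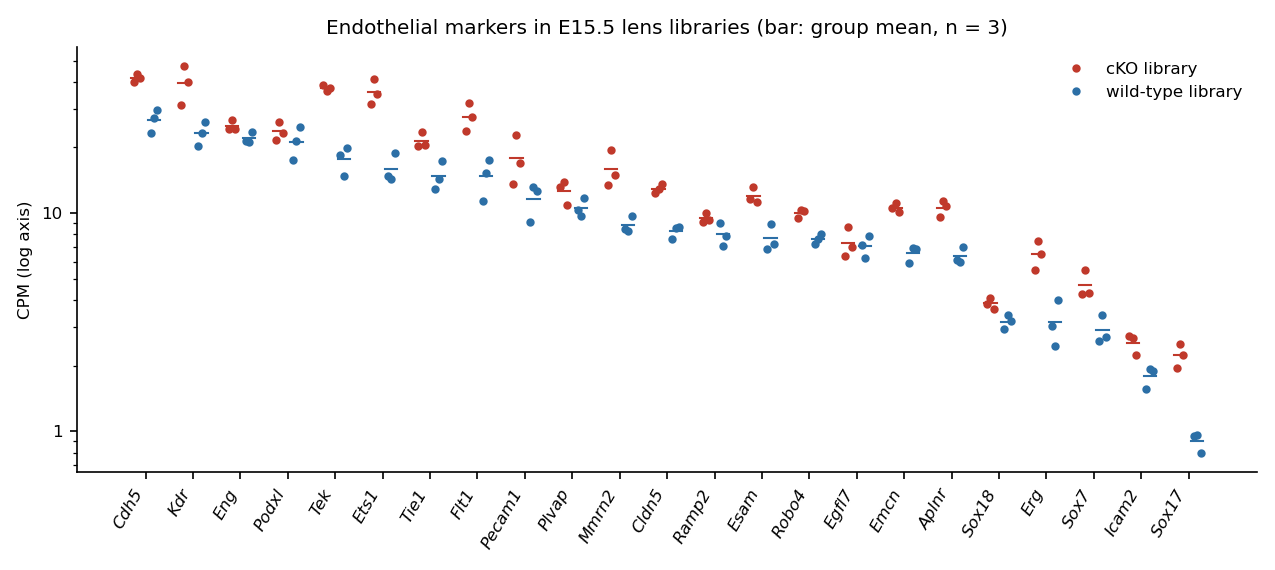
Levels of the 23 endothelial marker genes in CPM on a log axis, with cKO libraries left of wild-type libraries for each gene; each point is 1 library and each bar a group mean (n = 3). In 20 of the 23 genes all cKO points lie above all wild-type points, and Plvap, Egfl7 and Podxl are the 3 genes whose points overlap. Sox17 is among the 20, and its separation was fixed by the filter on low values.

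Of the receptors of the VEGF and angiopoietin pathways, Kdr, Flt1, Tek and Tie1 rose. Tek (Tie2), the receptor of the angiopoietins, had 38.6, 36.4 and 37.6 CPM in cKO lenses, against 18.6, 14.8 and 20.0 CPM in wild-type lenses. The lowest cKO library thus lay far above the highest wild-type library. Its log2 fold change was 1.05 (SE 0.10, 95% interval 0.82 to 1.27, limma adjusted p = 8.96e-06), and its partner receptor Tie1 rose by 0.51 (limma adjusted p = 0.0033). Kdr, the main signalling receptor of VEGF-A, had 31.3, 47.0 and 39.9 CPM in cKO lenses, against 20.3, 23.3 and 26.2 CPM in wild-type lenses (log2 fold change 0.72, limma adjusted p = 0.00161). Flt1, which binds VEGF-A with high affinity and acts largely as a decoy, had 23.8, 31.8 and 27.5 CPM in cKO lenses, against 11.4, 15.3 and 17.5 CPM in wild-type lenses (log2 fold change 0.88, limma adjusted p = 0.000637). In both genes cKO replicate 2 was the highest of the 6 libraries and wild-type replicate 1 the lowest. Aplnr, the receptor of apelin, rose by 0.66 (limma adjusted p = 0.000774). Robo4, an endothelial roundabout receptor that stabilises vessels, rose by 0.36 (limma adjusted p = 0.0175), a call that was lost with DESeq2 (adjusted p = 0.07), with all libraries thinned to the same depth, and without cKO replicate 3.

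Genes of the junctions between endothelial cells rose as well. Cdh5 encodes VE-cadherin, the adhesion molecule of endothelial adherens junctions, and had 39.9, 43.6 and 41.8 CPM in cKO lenses, against 23.2, 27.2 and 29.6 CPM in wild-type lenses. Its log2 fold change was 0.63 (SE 0.10, 95% interval 0.43 to 0.84, limma adjusted p = 0.000271), with no overlap between the groups. Cldn5, the claudin of endothelial tight junctions, had 12.4, 12.9 and 13.6 CPM in cKO lenses, against 7.63, 8.59 and 8.68 CPM in wild-type lenses (log2 fold change 0.59, limma adjusted p = 0.000861). Esam, an adhesion molecule of tight junctions, rose by 0.59 (limma adjusted p = 0.00207). Pecam1 (CD31), an immunoglobulin-type adhesion molecule used as a general endothelial marker, had 13.6, 22.9 and 16.9 CPM in cKO lenses, against 9.11, 13.1 and 12.7 CPM in wild-type lenses. Its groups were separated by a narrow gap, with a log2 fold change of 0.56 (SE 0.18, limma adjusted p = 0.0294). The Pecam1 call was lost with thinned reads (adjusted p = 0.117), without cKO replicate 2 (0.0858), without cKO replicate 3 (0.0614) and without wild-type replicate 1 (0.0827).

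Of the surface sialomucins and matrix proteins, Emcn and Mmrn2 rose. Emcn, the sialomucin endomucin of capillaries and veins, had 10.5, 11.2 and 10.1 CPM in cKO lenses, against 5.90, 6.93 and 6.88 CPM in wild-type lenses (log2 fold change 0.62, limma adjusted p = 0.000952). Mmrn2, a multimerin of the endothelial matrix that binds VEGF-A, had 13.4, 19.5 and 14.9 CPM in cKO lenses, against 8.499, 8.24 and 9.68 CPM in wild-type lenses (log2 fold change 0.78, limma adjusted p = 0.000586). Both genes were apart between the groups.

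Among the transcription factors of the endothelial lineage, Ets1, Erg, Sox17 and Sox7 rose. Ets1, an ETS factor, had 31.7, 41.0 and 35.2 CPM in cKO lenses, against 14.7, 14.4 and 18.8 CPM in wild-type lenses, and its log2 fold change of 1.13 (SE 0.12, 95% interval 0.87 to 1.38, limma adjusted p = 1.29e-05) was the highest of the 23 on the log2(CPM + 1) scale. In edgeR on the recovered reads Sox17 was higher, at 1.26 against 1.15 for Ets1. Ets1 is also expressed outside endothelium, for example in lymphocytes and mesenchyme. Erg, the ETS factor most restricted to endothelium among these, had 5.49, 7.47 and 6.51 CPM in cKO lenses, against 3.04, 2.45 and 3.99 CPM in wild-type lenses (log2 fold change 0.86, limma adjusted p = 0.00108). On the log2(CPM + 1) scale, Tek and Ets1 were the 2 endothelial genes called with a log2 fold change of at least 1, a size that 1.63% of all tested genes reached with a call. In edgeR, Sox17 (1.26) and Erg (1.02) reached it as well, but the share of all tested genes that did so in edgeR was not counted. Sox17 passed the filter on low values only through its cKO libraries.

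The SoxF factors Sox7, Sox17 and Sox18 act with overlapping roles in arterial and lymphatic endothelium. Sox17 had 1.95, 2.52 and 2.24 CPM in cKO lenses, against 0.954, 0.964 and 0.798 CPM in wild-type lenses. These are 39, 51 and 63 reads in cKO against 11, 11 and 8 reads in wild type. Its log2 fold change was 0.76 on the log2(CPM + 1) scale (limma adjusted p = 0.00141), which understates low genes, and 1.26 in edgeR on the recovered reads. Sox17 passed the filter on low values only through its cKO libraries, so it had to differ to be tested at all. Without it, 15 of 22 endothelial genes rose. Sox7 had 4.24, 5.49 and 4.31 CPM in cKO lenses, against 2.60, 3.42 and 2.69 CPM in wild-type lenses (log2 fold change 0.54, limma adjusted p = 0.0101). Sox18 did not pass, at 0.22 (95% interval -0.06 to 0.49, limma adjusted p = 0.208), although its 3.63 to 4.11 CPM in cKO lay above its 2.95 to 3.42 CPM in wild type.

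The 7 endothelial genes that did not pass the test were Eng, Plvap, Ramp2, Egfl7, Sox18, Podxl and Icam2. Eng, the TGF-β co-receptor endoglin, had 24.4, 26.8 and 24.3 CPM in cKO lenses, against 21.5, 21.2 and 23.5 CPM in wild-type lenses, a log2 fold change of 0.18 (95% interval -0.01 to 0.37, limma adjusted p = 0.128). Its groups were apart by less than 1 CPM. Egfl7, a secreted factor of endothelial cells, had 6.34, 8.61 and 6.98 CPM in cKO lenses, against 7.11, 6.22 and 7.88 CPM in wild-type lenses, and its libraries were fully mixed (log2 fold change 0.04, 95% interval -0.25 to 0.32, limma adjusted p = 0.852). Plvap, the diaphragm protein of fenestrated endothelium, had a value of 0.24 (95% interval -0.01 to 0.49). Ramp2, the partner of the adrenomedullin receptor, stood at 0.23 (-0.02 to 0.47), and the podocalyxin gene Podxl, also expressed by podocytes and other epithelia, at 0.16 (-0.09 to 0.42). Icam2, an adhesion ligand for leukocytes, was the closest to the threshold, at 0.35 (0.04 to 0.65, limma adjusted p = 0.0705), on as few as 18 reads in a wild-type library. The upper bounds of these 7 intervals ran from 0.32 to 0.65, so that a rise as large as the median of the 23 genes lay inside the interval of Icam2 and outside that of the other six.

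Ramp2 shares sequence with a neighbour: 30.7% of its 50-base words also occur in transcripts of other genes, with Vps25 on the same strand overlapping it. Vps25 itself had 0.499 to 0.641 CPM in cKO lenses and 0 to 0.599 CPM in wild-type lenses. As the overlap spans 1103 bases and the counting of its reads is not known, these low values need not show that Vps25 was silent. Whether reads of Vps25 entered the level of Ramp2 was not tested. For Sox17 the share was 15.0%, with Gm37587 on the opposite strand. Gm37587 was not listed by that symbol among the features, so no level can be given for it. No other endothelial or pericyte gene reached 10%, but the labels do not state how reads in overlaps were counted.

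Of the 8 pericyte genes 5 were higher, 1 was lower and 2 did not pass the same test, and edgeR gave the same counts of 5 and 1. Over all tested genes 20.9% were higher and 15.9% lower, so a single lower gene among 8 is near that background. The median log2 fold change of the 8 genes was 0.48, with a range of -0.71 to 1.06. Their summed level was 170.1, 203 and 200.4 CPM in cKO replicates 1, 2 and 3, against 118, 129 and 149 CPM in wild-type replicates 1, 2 and 3. The sums did not overlap, and the cKO mean was 1.45 times the wild-type mean. Gene by gene, all cKO libraries lay above all wild-type libraries in 5 of the 8 and below them in 1, against 26.9% above and 21.2% below over all tested genes. Rgs5 alone gave 87.3 of the mean 191 CPM in cKO lenses and 41.4 of the mean 132 CPM in wild-type lenses.

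**Figure D2:**
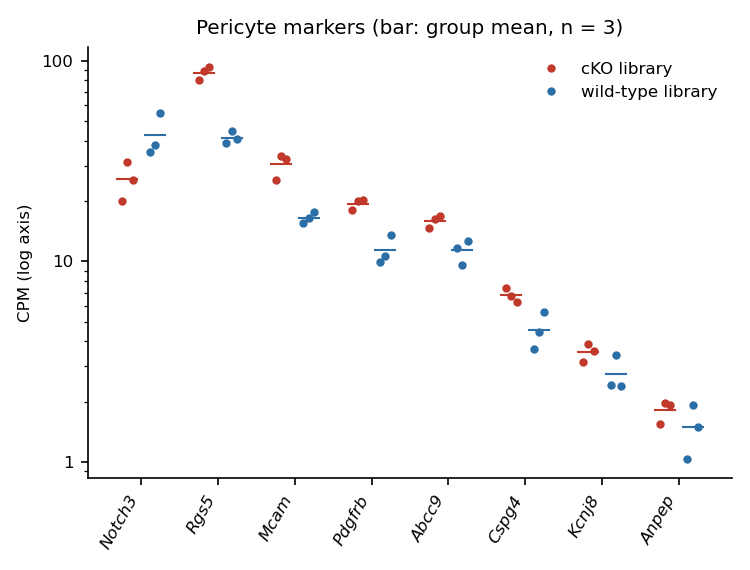
Levels of the 8 pericyte marker genes in CPM on a log axis, with cKO libraries left of wild-type libraries; each point is 1 library and each bar a group mean (n = 3). Rgs5, Mcam, Pdgfrb, Abcc9 and Cspg4 have all cKO points above all wild-type points, Notch3 has them below, and Kcnj8 and Anpep overlap.

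Rgs5, a regulator of G-protein signalling that is a widely used marker of pericytes, had 79.8, 88.6 and 93.5 CPM in cKO lenses, against 38.9, 44.4 and 40.8 CPM in wild-type lenses. It had the smallest adjusted p of the 31 genes (log2 fold change 1.06, SE 0.09, 95% interval 0.88 to 1.24, limma adjusted p = 1.31e-06), and both groups were tight. Pdgfrb, the receptor through which PDGF-B recruits pericytes, had 17.97, 20.0 and 20.3 CPM in cKO lenses, against 9.97, 10.6 and 13.5 CPM in wild-type lenses (log2 fold change 0.73, limma adjusted p = 0.000368). Mcam (CD146), an adhesion molecule of both pericytes and endothelial cells, had 25.6, 33.7 and 32.5 CPM in cKO lenses, against 15.52, 16.4 and 17.7 CPM in wild-type lenses (log2 fold change 0.84, limma adjusted p = 8.39e-05). All cKO libraries lay above all wild-type libraries in these 3 genes.

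Cspg4, the NG2 proteoglycan of pericytes and of glial precursors, had 7.39, 6.73 and 6.30 CPM in cKO lenses, against 3.64, 4.47 and 5.59 CPM in wild-type lenses. Its log2 fold change was 0.50 (limma adjusted p = 0.0145), and the call was lost without cKO replicate 1 (adjusted p = 0.0528) and without wild-type replicate 1 (0.0556). Abcc9 and Kcnj8 encode the sulfonylurea receptor and the pore of the vascular ATP-sensitive potassium channel and lie next to each other on chromosome 6, Kcnj8 at 142564837 to 142571614 and Abcc9 at 142587862 to 142702315 (GRCm38, both on the minus strand). Abcc9 had 14.7, 16.3 and 16.8 CPM in cKO lenses, against 11.7, 9.64 and 12.7 CPM in wild-type lenses (log2 fold change 0.46, limma adjusted p = 0.00628). Kcnj8 did not pass, with 3.14, 3.86 and 3.59 CPM in cKO lenses, against 2.43, 3.42 and 2.39 CPM in wild-type lenses (log2 fold change 0.28, 95% interval -0.04 to 0.60, limma adjusted p = 0.152). Whether the changes of these neighbours differ was not tested. Anpep, the aminopeptidase CD13 of pericytes and many epithelia, had 1.55 to 1.98 CPM in cKO lenses and 1.04 to 1.93 CPM in wild-type lenses and did not pass (0.19, 95% interval -0.16 to 0.54, limma adjusted p = 0.391).

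Notch3 went the other way, and which cells its reads came from was not tested. This Notch receptor of mural cells, which they need to mature around arteries, had 20.0, 31.4 and 25.6 CPM in cKO lenses, against 35.2, 37.9 and 54.9 CPM in wild-type lenses. The highest cKO library lay below the lowest wild-type library, although both groups were wide, with a coefficient of variation of 22.2% in cKO and 25.01% in wild type. Its log2 fold change was -0.71 (SE 0.19, 95% interval -1.14 to -0.28, limma adjusted p = 0.0179). Without cKO replicate 3 the value was -0.72 and the call was lost (adjusted p = 0.0561). Gm17276, a gene on the opposite strand that overlaps it over 488 bases, had 0.775 ± 0.03 CPM in cKO lenses and 0.772 ± 0.33 CPM in wild-type lenses (SD, n = 3 each).

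**Figure D3:**
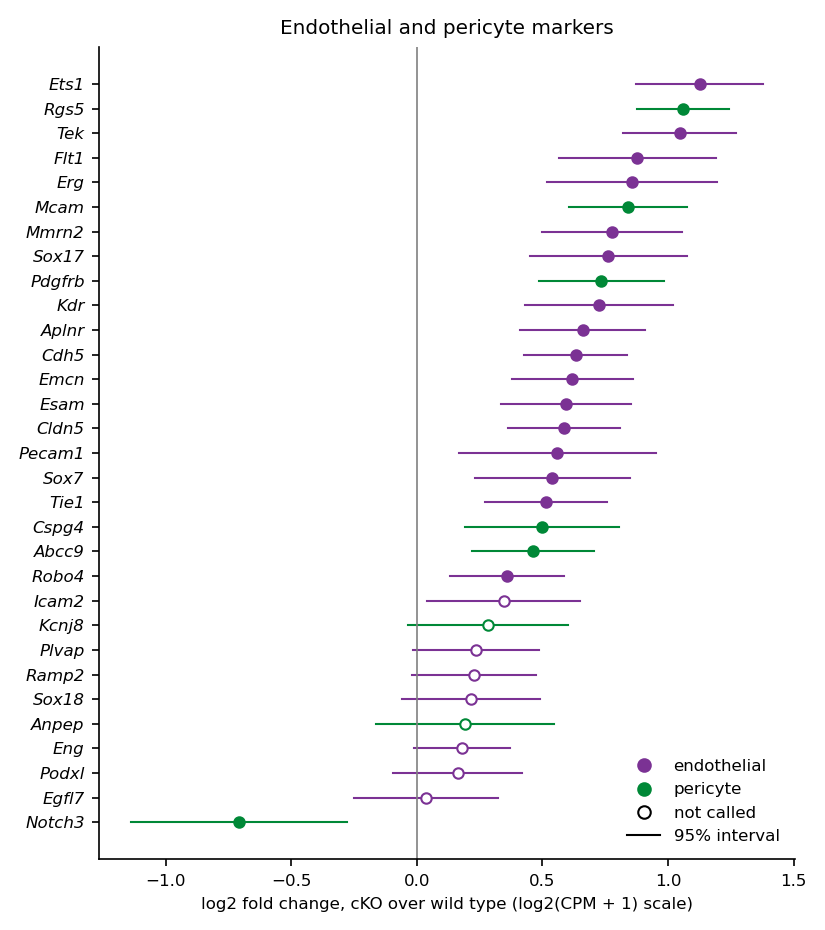
Log2 fold change of cKO over wild type on the log2(CPM + 1) scale for the 31 genes with 95% intervals, endothelial and pericyte genes in separate colours, filled points for called genes and open points for the others. The points run from -0.71 for Notch3 to 1.13 for Ets1, and Notch3 is the 1 gene below 0.

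Genome position did not enter the choice of these genes. Tek lies on chromosome 4 at 94739289 to 94874976 (plus strand, GRCm38), Ets1 on chromosome 9 at 32636221 to 32757820 (plus strand), Rgs5 on chromosome 1 at 169655501 to 169695813 (plus strand), and Notch3 on chromosome 17 at 32120820 to 32166852 (minus strand). All 31 genes are annotated as protein coding in GENCODE M21.

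Endothelial genes are commonly controlled by ETS and SoxF factors, and genes of both families rose here, so the 250 bases upstream of each annotated start were searched on both strands for the ETS cores CAGGAA and CCGGAA and the SOX cores ACAATG and AACAAT, which can overlap each other. RefSeq windows (GRCm38.p6) were at hand for 10 endothelial genes with 14 windows and for 7 pericyte genes with 7 windows. An ETS core was found in 8 of the 14 endothelial windows (57.1%) and in 3 of the 7 pericyte windows (42.9%), against 35.1% of all 32851 windows. A SOX core was found in 3 endothelial windows (21.4%) and 0 pericyte windows, against 16.2% of all windows. By single core, the endothelial shares were 50% for CAGGAA and 21.4% for AACAAT, against 25.7% and 9.42% of all windows. For CCGGAA and ACAATG they were lower than over all windows, at 7.14% each against 12% and 10.7%. Egfl7 and Erg have more than 1 window each, so the windows are not independent. Tek, Emcn and Erg held both kinds in 1 window each, which 5.47% of all windows did. Those 3 windows are printed first, followed by those of Rgs5 and Notch3, the pericyte genes with the highest and the lowest fold change. Each is written 5′ to 3′ on the gene's strand, and capitals mark matches on either strand.
Tek, chr4:94739039-94739288, plus strand: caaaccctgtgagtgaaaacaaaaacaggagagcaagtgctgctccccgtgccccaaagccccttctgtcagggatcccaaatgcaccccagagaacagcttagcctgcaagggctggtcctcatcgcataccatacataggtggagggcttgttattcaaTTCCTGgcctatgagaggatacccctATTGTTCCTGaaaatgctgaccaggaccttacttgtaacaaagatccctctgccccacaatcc
Emcn, chr3:137340828-137341077, plus strand: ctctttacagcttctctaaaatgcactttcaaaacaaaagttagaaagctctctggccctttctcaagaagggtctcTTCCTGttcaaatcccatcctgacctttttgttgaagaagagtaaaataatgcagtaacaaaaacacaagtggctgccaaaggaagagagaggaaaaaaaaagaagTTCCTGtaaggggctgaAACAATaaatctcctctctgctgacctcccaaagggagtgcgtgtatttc
Erg, chr16:95459349-95459598, minus strand: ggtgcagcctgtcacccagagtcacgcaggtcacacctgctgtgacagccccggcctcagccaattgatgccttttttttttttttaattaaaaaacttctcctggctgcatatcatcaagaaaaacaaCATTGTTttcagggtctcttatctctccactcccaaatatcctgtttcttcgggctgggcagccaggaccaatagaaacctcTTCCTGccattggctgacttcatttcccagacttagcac
Rgs5, chr1:169655251-169655500, plus strand: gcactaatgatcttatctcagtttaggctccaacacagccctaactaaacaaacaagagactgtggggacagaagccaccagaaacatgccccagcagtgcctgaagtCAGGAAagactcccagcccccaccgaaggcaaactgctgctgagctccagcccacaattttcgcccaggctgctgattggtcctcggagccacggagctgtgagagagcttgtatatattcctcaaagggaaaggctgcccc
Notch3, chr17:32166891-32167140, minus strand: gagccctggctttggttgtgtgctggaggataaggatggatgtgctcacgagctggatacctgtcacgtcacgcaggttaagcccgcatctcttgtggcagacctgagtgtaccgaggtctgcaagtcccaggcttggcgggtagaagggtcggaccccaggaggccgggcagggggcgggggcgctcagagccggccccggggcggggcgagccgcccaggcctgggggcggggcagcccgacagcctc
In the Tek window 1 ETS match runs into the SOX match, and in the Erg window the SOX capitals are 2 overlapping matches. Rgs5 holds a single ETS core and Notch3 no match. A match describes these letters only, and its share in so few windows was not tested.

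Within cKO the libraries tended to keep 1 order across the endothelial genes, and within wild type the order was looser. Among the cKO libraries, replicate 2 was the highest in 20 of the 23 genes and replicate 1 the lowest in 16. Among the wild-type libraries, replicate 3 was the highest in 15 and replicate 1 the lowest in 13, while replicate 2 was the highest in 7 and the lowest in 9. How often each library was the highest or lowest of its group over all tested genes was not counted, so these orders may not be particular to the markers. The median log2 difference of the 23 genes from the wild-type mean was 0.44, 0.69 and 0.52 in cKO replicates 1, 2 and 3, against -0.10, 0.01 and 0.13 in wild-type replicates 1, 2 and 3. Hence the cKO library with the smallest shift was still beyond the wild-type library with the largest one. In the pericyte genes the same medians were 0.48, 0.49 and 0.47 in cKO replicates 1, 2 and 3, against -0.14, -0.01 and 0.12 in wild-type replicates 1, 2 and 3. The median coefficient of variation of the endothelial genes was 9.24% in cKO and 12.1% in wild type, and that of the pericyte genes 9.14% in cKO and 18.8% in wild type, with the wild-type libraries being the shallower ones.

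Levels of different genes can be compared only per length, for which the authors' RPKM (CPM per kilobase of gene length) were averaged. Rgs5 was the highest of the 31 genes in both groups, at 19.2 RPKM in cKO and 9.09 RPKM in wild type. Cdh5 was second, at 10.5 RPKM in cKO and 6.69 RPKM in wild type, and Cldn5 followed, at 9.16 RPKM in cKO and 5.87 RPKM in wild type. The lowest were Anpep in cKO, at 0.468 RPKM against 0.384 RPKM in wild type, and Sox17 in wild type, at 0.287 RPKM against 0.709 RPKM in cKO. Notch3 stood at rank 16 in cKO and rank 5 in wild type, Tek at rank 5 in cKO and rank 9 in wild type, and Ets1 at rank 11 in cKO and rank 19 in wild type. Most neighbours in this order did not differ beyond their spread: of the 30 neighbouring pairs, the cKO libraries were free of overlap in 6 and the wild-type libraries in 4.

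The ligands, receptors and modulators that act on these vessels gave a mixed picture. Of 57 such genes 49 were tested, of which 17 rose and 5 fell, with a median log2 fold change of 0.18, while 20.9% of all tested genes were higher and 15.9% lower. Cxcl12, a chemokine that draws endothelial and blood cells, passed the filter only through its cKO libraries, with 2.25, 4.65 and 3.56 CPM in cKO lenses, against 0, 0.438 and 0 CPM in wild-type lenses. It was called higher, but with 2 wild-type libraries at 0 its fitted fold change is not a measure of size, and without it 16 of 48 genes rose. Angpt1, the ligand that activates Tek and is made by mural and mesenchymal cells, had 8.73, 8.46 and 6.69 CPM in cKO lenses, against 1.82, 2.63 and 2.49 CPM in wild-type lenses (log2 fold change 1.44, SE 0.15, limma adjusted p = 1.05e-05). Nrp1, a co-receptor of Kdr, had 33.5, 37.5 and 33.0 CPM in cKO lenses, against 16.8, 19.7 and 17.2 CPM in wild-type lenses (0.92, limma adjusted p = 1.04e-05). Angpt1 and Nrp1 thus rose alongside the receptors they act with, without any overlap of the groups.

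**Figure D4:**
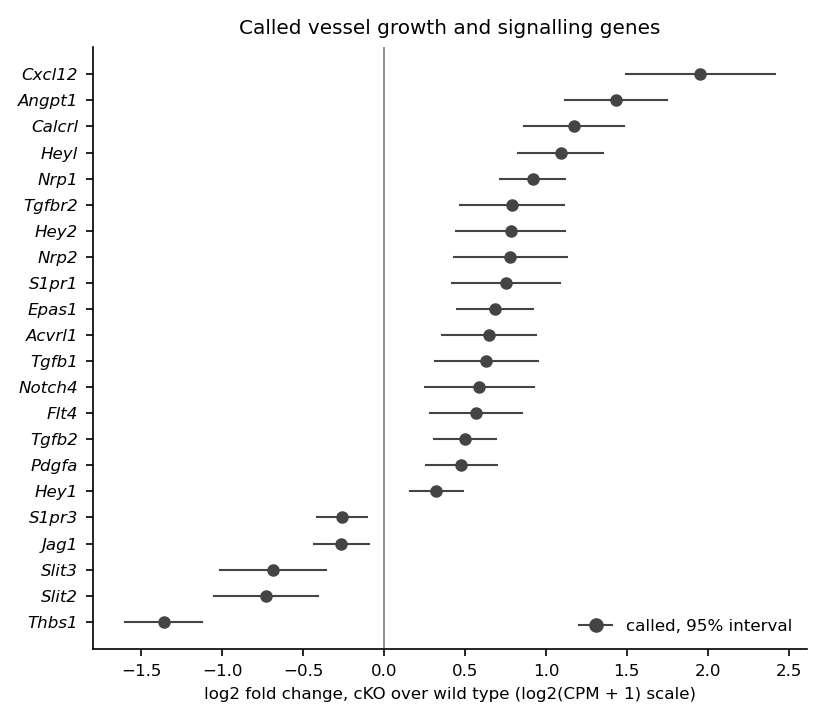
Log2 fold change of cKO over wild type on the log2(CPM + 1) scale, with 95% intervals, for the vessel growth and signalling genes that passed the test. The 17 genes above 0 include Angpt1 at 1.44 and Nrp1 at 0.92, and the 5 below 0 are Thbs1, Slit2, Slit3, Jag1 and S1pr3; Cxcl12 rests on 2 wild-type libraries at 0.

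Other receptors that rose were Calcrl (log2 fold change 1.17), which pairs with Ramp2, Nrp2 (0.78), Flt4 (0.57), the VEGF-C receptor, and S1pr1 (0.75), a sphingosine phosphate receptor that stabilises vessels. Of the TGF-β arm, Tgfbr2 (0.79), Acvrl1 (0.65), Tgfb1 (0.63) and Tgfb2 (0.50) rose. Of the Notch arm, Heyl (1.09), Hey2 (0.78) and Hey1 (0.32), which are transcriptional targets of Notch, and the endothelial receptor Notch4 (0.59) rose, whereas the ligand Jag1 fell by 0.26 on the log2 scale. Heyl had 10.4, 13.3 and 12.8 CPM in cKO lenses, against 4.86, 4.997 and 5.59 CPM in wild-type lenses, opposite in direction to Notch3. The hypoxia-regulated factor Epas1 (0.69) and the PDGF ligand Pdgfa (0.48) completed the list of those that rose.

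Thbs1, which encodes thrombospondin, a matrix protein that inhibits vessel growth, had 37.2, 40.9 and 47.4 CPM in cKO lenses, against 93.9, 109 and 125 CPM in wild-type lenses. The groups were far apart, and its log2 fold change was -1.36 (SE 0.11, limma adjusted p = 1.77e-06). The guidance ligands Slit2 (-0.73) and Slit3 (-0.69), which bind roundabout receptors, and the sphingosine phosphate receptor S1pr3 (-0.26) fell as well. Without cKO replicate 3 the number that fell was 3.

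Vegfa, Pdgfb, Angpt2 and Dll4, named here after their values were seen, did not pass. Vegfa, the main growth factor of blood vessels, had 155, 175 and 159.6 CPM in cKO lenses, against 159, 145 and 154 CPM in wild-type lenses, with overlapping groups and a log2 fold change of 0.10 (95% interval -0.06 to 0.26, limma adjusted p = 0.335). Pdgfb, the pericyte recruiting ligand made by endothelium, stood at 0.19 (95% interval -0.12 to 0.51), Angpt2, the context-dependent antagonist of Tek, at 0.16 (-0.21 to 0.54), and Dll4, the Notch ligand of tip cells, at 0.38 (0.03 to 0.73, limma adjusted p = 0.0863).

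Further markers of the same cells were counted in 2 more lists. Of 43 further endothelial genes listed 34 were tested, of which 18 rose and 3 fell, with a median log2 fold change of 0.49. As 1 of the 34 passed the filter on low values only through cKO, the count without it was 17 of 33, against 20.9% of all tested genes higher and 15.9% lower. The 4 with the smallest adjusted p were Sema3g (1.13), Gja4 (1.21), Cd93 (0.95) and Ptprb (0.96). Cd93, an endothelial lectin-like receptor, had 44.2, 60.1 and 49.3 CPM in cKO lenses, against 21.7, 26.6 and 29.6 CPM in wild-type lenses. The 3 that fell, named after their values were seen, were Slc2a1 (-0.64), Mfsd2a (-0.92) and Afap1l1 (-0.53). Slc2a1, a glucose transporter of many cell types that lens cells also use, had 258, 335 and 332 CPM in cKO lenses, against 435, 469.5 and 528 CPM in wild-type lenses. It gave 308 of the mean 797 CPM of this list in cKO and 477 of 892 CPM in wild type, and the list sums overlapped, at 709 to 868 CPM in cKO lenses and 817 to 981 CPM in wild-type lenses.

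Of 25 further mural cell genes 13 were tested, and 12 did not pass the filter on low values. Among the 13, 8 rose and 0 fell by limma and by edgeR. Over all tested genes 20.9% were higher and 15.9% lower by limma and 20.0% each by edgeR. All 13 had positive values, and the median was 0.66. The contractile genes stood out in size: Acta2, smooth muscle actin, had 46.3, 30.2 and 56.8 CPM in cKO lenses, against 4.68, 4.82 and 4.89 CPM in wild-type lenses (log2 fold change 2.92, limma adjusted p = 9.7e-07). On the log2 scale Tagln, a smooth muscle actin-binding protein, rose by 2.75 and Myl9, a myosin light chain, by 1.28, and Heyl was the fourth gene by adjusted p. Heyl is also on the list of vessel growth genes, so both lists count it. These contractile genes are not particular to pericytes, since lens epithelial cells that turn into myofibroblasts and mesenchymal cells express them too, and the cells behind them were not identified.

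Markers of other cells that can lie on the lens surface were counted in the same fit, in which 20.9% of all tested genes were higher and 15.9% lower. Of 24 macrophage genes listed 15 were tested, of which 13 rose and 0 fell by limma and by edgeR. As 2 of the 15 passed the filter on low values only through cKO, the count without them was 11 of 13. The macrophage list summed to 45.0 to 60.4 CPM in cKO lenses and 17.95 to 22.9 CPM in wild-type lenses. The 4 with the smallest adjusted p were Ctss (log2 fold change 1.46), C1qa (1.22), Cx3cr1 (1.20) and Mrc1 (1.15). Of 20 periocular mesenchyme genes 11 were tested, of which 6 rose and 1 fell. However, 2 of the 11 passed the filter only through cKO, and without them 4 of 9 rose. Those with the smallest adjusted p were Eya2 (1.68), Col1a2 (1.11), Foxc1 (0.86) and Col3a1 (1.28). The gene that fell was Pdgfra, which lens cells express strongly; with it the list summed to 216 to 256 CPM in cKO lenses and 219 to 265 CPM in wild-type lenses, and without it, a choice made after the values were seen, to 49.0 to 67.9 CPM in cKO lenses and 25.5 to 30.0 CPM in wild-type lenses. Of 16 red cell genes 10 were tested, of which limma called 4 higher and 1 lower and edgeR 3 higher and 0 lower. The red cell list summed to 542 to 787 CPM in cKO lenses and 374 to 418 CPM in wild-type lenses. Among those called higher by limma were Hbb-bs (1.21), Slc4a1 (1.10) and Hba-a1 (0.81). Hba-a2 had -0.50, and since it is a near-identical copy of Hba-a1 both values are uncertain.

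**Figure D5:**
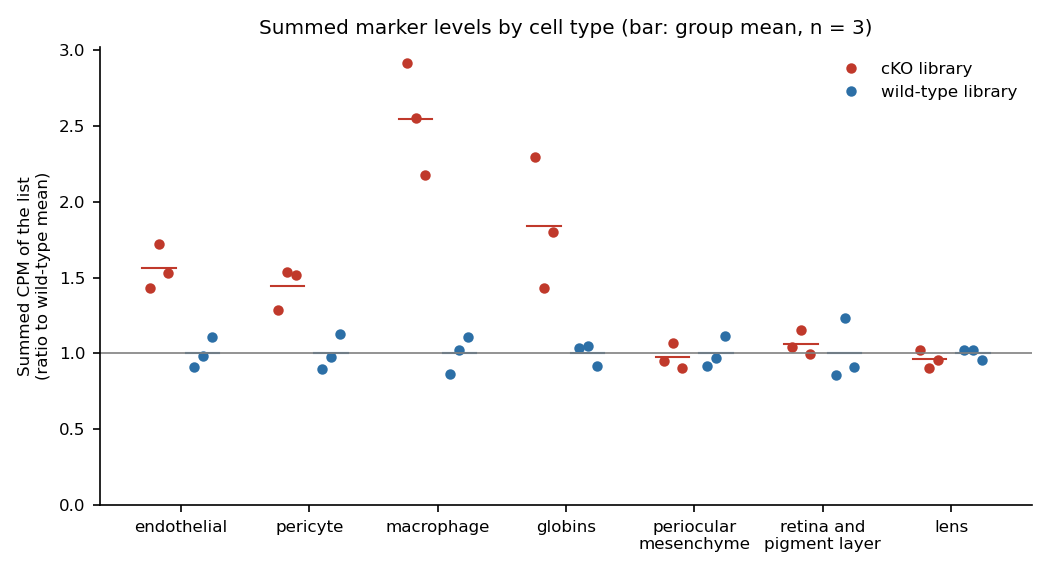
Summed CPM of each marker list in each library, divided by the wild-type mean of that list, with cKO left of wild type; points are libraries and bars group means (n = 3). The cKO mean was 1.56 times the wild-type mean for endothelial markers, 1.45 for pericyte markers, 2.55 for macrophage markers, 1.84 for the 6 globin genes of the red cell list and 0.961 for lens markers.

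Of 22 retinal and pigment layer genes only 5 were tested, and 1 of these was called, Hes5 (0.38, higher). The list summed to 49.2 to 56.9 CPM in cKO lenses and 42.3 to 60.8 CPM in wild-type lenses. The library with the highest sum of this retinal and pigment list was wild-type replicate 2, which was not the highest wild-type library in the endothelial sum. Within cKO, replicate 2 was the highest in both the retinal and the endothelial sum. Of 17 lens genes tested, 1 rose (Maf, 0.50) and 5 fell, against 20.9% and 15.9% of all tested genes. The part of other tissue on the lens in the higher vessel markers was not tested, and that of the number of lenses per pool cannot be told apart from genotype. With every library thinned to 10023049 reads, 14 of 23 endothelial and 5 of 8 pericyte genes were called higher. In that fit 2218 of about 11910 genes tested were higher and 1720 lower.

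A few genes of these lists were at 0 in all 6 libraries: Fgf2, Foxc2, P2ry14, Neurod1, Rpe65 and Sox1. Sox1 is a gene of lens fibre cells, so a listing at 0 in these data need not show that a gene was silent.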

How the data were processed

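RNA-seq libraries of E15.5 mouse lenses, 3 cKO and 3 wild type, were compared. The authors deposited CPM and RPKM values per feature, per the file headers. Per the submitters' processing notes, edgeR and the build GRCm38 were used; aligner, counter and annotation are not given in these sources. CPM were whole multiples of 1 read (within 0.02 reads) in 100% of values, so reads were recovered by division. Features without an Ensembl identifier took 0.192% to 0.208% of reads.

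Groups were compared with limma-trend (limma 3.58.1, R 4.3.3, robust moderation) on log2(CPM + 1), with group as the only term, after a filter of at least 1 CPM in at least 3 libraries. Benjamini-Hochberg adjustment ran over all 11941 genes tested, and fold changes on this scale understate low genes. Gene lists were read from the same fit by counts and medians. The members and lists were chosen with earlier results of these data known. Named genes were all members, Itgb1, the called vessel growth genes and the 4 smallest adjusted p of each other list, with exceptions stated; some are not reported here. Alternatives were TMM or RLE scaling, no filter, a filter on a mean of 5 CPM or more, 0.1 as pseudocount, a replicate block, thinned reads, leaving out each library, and edgeR 4.0.16 (quasi-likelihood), DESeq2 1.42.0 and limma-voom on recovered reads. The main test and edgeR were also run on simulated counts, with 1 fixed spread between replicates for every gene and far fewer changed genes than were called here. That run does not measure the error rate in these data. Replicates of a group differed by more than counting noise (chi-square per degree of freedom 4.23 to 20.1), so none was counted as a repeat. RPKM served to order genes. Coordinates and shared 50-base words came from GENCODE M21 (GRCm38), and promoters from RefSeq (GRCm38.p6).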

Additional observations from a re-analysis of the deposited data

How the results depend on the processing

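Of the 22 called marker genes, 18 stayed called in each of the 16 alternatives in which they were tested, and the exceptions were Pecam1, Robo4, Cspg4 and Notch3. None of the 9 uncalled genes was called under an alternative in which it was tested; Sox18, Icam2, Kcnj8 and Anpep were not tested with a mean of at least 5 CPM. Egfl7, uncalled at 0.04, changed sign to -0.044 with thinned reads, -0.072 without cKO replicate 2 and -0.040 without wild-type replicate 2, with a highest value of 0.12 when 1 library was left out; the cause was not tested. Leaving out 1 library gave 14 to 16 higher endothelial genes, 4 to 5 higher and 0 to 1 lower pericyte genes, the 0 being without cKO replicate 3, and 3 to 6 lower vessel growth genes. The number of higher further endothelial genes was 7 of 18 with a mean of at least 5 CPM, where fewer genes were tested and 1988 of all 9531 were higher. The endothelial median log2 fold change ran from 0.53 to 0.65 and the pericyte median from 0.43 to 0.62 over the alternatives.

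Over all genes, other scalings evened the split of 2499 higher and 1904 lower genes, to 2441 and 2317 with TMM and 2361 and 2430 with RLE. Whether the replicate numbers pair the libraries could not be settled with 3 libraries per group. The deviations of same-numbered libraries from their group means had correlations of 0.327, -0.034 and 0.147. Replicates 1 and 3 of cKO correlated best with the wild-type library of the same number, and cKO replicate 2 with wild-type replicate 3 (0.207). With the replicate block 2916 genes were higher and 2249 lower, with 16 endothelial genes higher and 0 lower, and 5 pericyte genes higher and 1 lower. Low genes are limited by depth: Sox17 rests on 8 to 11 reads per wild-type library.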
